A study of Mus musculus with 4 samples.

Results

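T cell receptor signalling genes were examined in human T cells from the blood and injured spinal cord of huNSG-SGM3 mice, an immunodeficient strain that carries human cytokine transgenes and a human immune system. The set held 33 of the 33538 human genes counted and ran from the receptor chains to costimulatory receptors and inhibitors. T cells were barcodes with over 50% of their unique molecular identifiers (UMIs, counts of captured molecules) on human genes, at least 1 UMI of CD3D, CD3E or CD3G and none of MS4A1, and 12985 of 17021 human cells met this. The question was how these genes differed, gene by gene, between kinds of T cell and between naïve, sham and SCI blood and between blood and injured cord.

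Hosts of all 4 groups carried the Prkdcscid and IL2rgtm1Wjl mutations on the NOD.Cg background, which leave no functional host lymphocytes. All of them also carried the transgene Tg(CMV-IL3,CSF2,KITLG)1Eav (MloySzJ), in which the CMV promoter drives 3 human cytokines. As pups they were irradiated and given CD34+ stem cells of human cord blood, so that the T cells studied were human cells that had matured in a mouse. All were labelled as 15 weeks of age. Naïve mice had no treatment, sham mice had a T9 laminectomy and SCI mice a T9 spinal cord injury, with operated mice sampled at 7 days, and naïve and sham hosts were male while SCI hosts were pooled males and females. Human CD45+ cells were sorted, and each of the 4 groups gave 1 library from pooled animals. Conditions were therefore not tested against each other, and condition, pool and host sex cannot be told apart.

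The T cell receptor binds peptide held by an MHC molecule but has no signalling tail of its own, and passes the signal through the CD3 chains and CD247 (CD3ζ). LCK phosphorylates these chains, ZAP70 docks on them and phosphorylates the scaffolds LAT and LCP2 (SLP-76), and calcium, Ras and NF-kB branches follow. CD28 and CD2 add to the signal, whereas CD5, CSK, PTPN6, PTPN22 and UBASH3A restrain it, and in the injured cord T cells are among the adaptive cells that arrive with inflammation.

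T cells numbered 4411, 3793 and 4703 in the naïve, sham and SCI blood libraries and 78 in the cord library, with a median of 3582, 5142, 4618 and 8150 UMIs per cell. They made up 69.8%, 81.6%, 79.3% and 66.1% of human cells. All 7 of 7 T cell marker genes were detected in each library, with summed levels of 6418 to 7371 CPM (UMIs of a gene per 1000000 human UMIs, with ribosomal and mitochondrial genes left out of the total). CD3D, CD3E and CD3G are among the 7 and made the gate, so that their detection was set by the selection. The naïve T cells stood apart by immunoglobulin transcripts, at 14418 CPM against 14.7 to 47.6 CPM in the other libraries. Monocyte markers stood at 775 and 902 CPM in naïve and sham, 163 CPM in SCI blood and 2535 CPM in cord T cells, so that SCI blood was low and cord high. Neutrophil or eosinophil markers stood at 1478 CPM in cord and at 15.7 to 33.2 CPM in blood. At most 10 kept cells of any library had a barcode found among the kept cells of another.

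Most of the set was a T cell signature against B cells. Counts were summed per gate in each of the 3 blood libraries, with B cells taken as cells with MS4A1 and no CD3 UMI, and 30 genes were tested, since CD3D, CD3E and CD3G made the gate. With edgeR's quasi-likelihood test and Benjamini-Hochberg adjustment over 12814 genes, 24 of the 30 were higher and 4 lower in T cells, against 26.5% higher and 25.1% lower of all genes. The median difference was 3.61 on the log2 scale, against 0.02 for all genes. These p-values measure how far the gate difference varied over the 3 pools, which also differed in condition.

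The highest contrasts were in genes that B cells all but lacked. THEMIS, an adaptor of thymocyte selection, had 4682 UMIs in 12907 blood T cells and 1 UMI in 2595 blood B cells. PRKCQ, the protein kinase Cθ that leads to NF-kB, had 3145 and 4 UMIs, and CD28 had 7941 and 7. TRAT1, an adaptor that associates with the receptor, had 14786 and 15 UMIs. Each was at or near background in B cells, so that no fold is given for them. LCK stood at 688, 662 and 699 CPM in naïve, sham and SCI T cells and at 9.04, 9.84 and 16.3 CPM in B cells, a log2 difference of 5.87 (SE 0.14, adjusted p = 1.49e-07). FYB1 (ADAP), an adaptor that couples the receptor to integrins, stood at 1159, 1336 and 1299.6 CPM against 22.2, 27.8 and 19.7 CPM, a difference of 5.77 (SE 0.10, adjusted p = 6.13e-08). T and B cell levels of both genes did not overlap in any library.

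Not all of the set was T cell-biased. PTPN6 (SHP-1), an inhibitory phosphatase of both lymphocyte lineages, stood at 179.9, 159 and 160.1 CPM in T cells and 600.2, 659.8 and 622 CPM in B cells, a log2 difference of -1.92 (SE 0.07, adjusted p = 8.58e-07). BCL10 and MALT1, which join the receptors of T and B cells to NF-kB, were also lower in T cells, by -0.98 (SE 0.10, adjusted p = 0.000139) and -0.75 (SE 0.06, adjusted p = 5.21e-05). CSK, the kinase that holds LCK inactive, differed by -0.36 (SE 0.07, adjusted p = 0.00387). The phosphatase PTPN22 and the exchange factor VAV1 did not pass the test, at -0.11 (SE 0.08) and -0.01 (SE 0.09), and their T and B cell levels overlapped. Of the 24 genes higher in T cells, PTPRC (CD45) differed least, by 0.47 (SE 0.07, adjusted p = 0.000825), followed by RASGRP1, a Ras exchange factor, at 0.78 (SE 0.07, adjusted p = 0.000104).

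The same split showed in the share of cells with a UMI, after each cell was thinned to 1000 UMIs. LCK had a UMI in 41.8%, 40.4% and 39.5% of thinned T cells of naïve, sham and SCI blood and in 0.332%, 0.185% and 0.941% of thinned B cells. Unthinned, these shares were 83.6%, 90.5% and 88.1% in T cells and 2.74%, 4.26% and 5.41% in B cells. PTPN6 went the other way, with a UMI in 11.5%, 10.4% and 10.2% of thinned T cells and 33.9%, 37.4% and 32.2% of thinned B cells, or 36.7%, 42.0% and 37.2% against 77.8%, 89.6% and 82.9% unthinned. The order of T and B cells was thus the same at equal depth for both genes.

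T cells were then divided by marker UMIs into exclusive gates. In naïve, sham and SCI blood the CD4 gate held 889, 951 and 950 cells, the CD8 gate 751, 736 and 1393, the FOXP3 gate 346, 415 and 220, and the cytotoxic gate (GZMH, GNLY or FGFBP2) 226, 112 and 286. Smaller gates were defined by NRP2, AK5 and NOG (30, 37 and 126 cells), by PDCD1 and CD200 (PD-1 gate, 66, 90 and 46 cells) and by the cycling genes MKI67 and TOP2A (227, 207 and 225 cells), and 1876, 1245 and 1457 cells had no call. A call needs a captured UMI, so a cell without a call can still belong to any of the kinds.

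**Figure D1:**
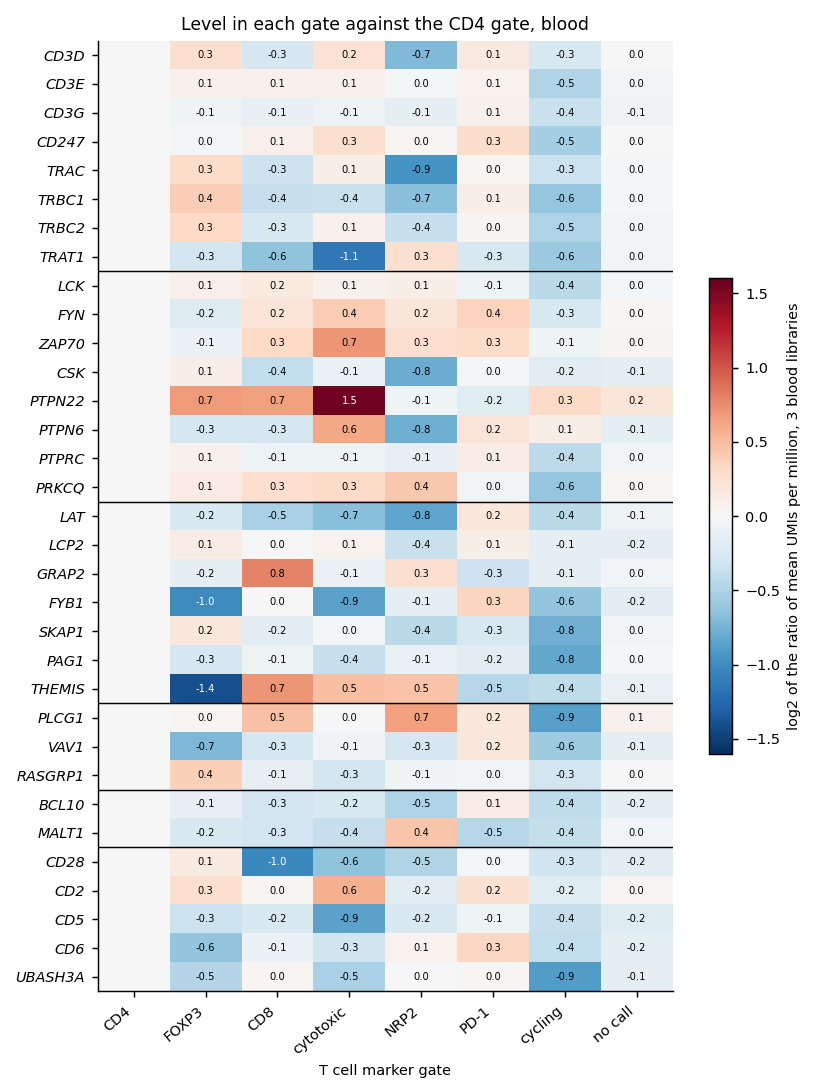
Mean level of each of the 33 genes (rows, by role) in each T cell gate (columns) against the CD4 gate, as the log2 of the ratio of mean CPM over the 3 blood libraries. Rows run from receptor chains at the top to surface receptors at the bottom. THEMIS and FYB1 stand low in the FOXP3 gate, CD28 in the CD8 gate and TRAT1 in the cytotoxic gate, while PTPN22 stands high in the cytotoxic gate.

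CD8-gated cells held less of most receptor and proximal signalling transcripts than CD4-gated cells, and more of 5. Of 33 genes tested with edgeR's quasi-likelihood test, 5 were higher and 18 lower, against 17.2% higher and 20.4% lower of 10688 genes. The levels below are CPM, while the fitted differences also carry TMM factors. With library totals in place of these factors the median of all genes moved to 0.11 and the split was 8 higher and 14 lower. The share of all genes called with library totals was not taken.

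CD28, the main costimulatory receptor, showed the largest of these differences. It stood at 121, 116 and 64.5 CPM in CD8-gated cells of naïve, sham and SCI blood and at 212, 215 and 188 CPM in CD4-gated cells. The gates did not overlap, and the log2 difference was -1.19 (SE 0.10, adjusted p = 2.54e-09). TRAT1 stood at 241, 266 and 214 CPM against 354, 385 and 384 CPM, with a difference of -0.76 (SE 0.06, adjusted p = 2.16e-09). LAT, the scaffold that ZAP70 phosphorylates, stood at 432, 399 and 339 CPM against 542, 576 and 553 CPM, with a difference of -0.63 (SE 0.06, adjusted p = 1.41e-08). For all 3 genes the highest CD8 library lay below the lowest CD4 library.

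The receptor chains moved unevenly between CD8 and CD4 cells. TRAC, TRBC1 and TRBC2, the constant regions of the αβ receptor, were lower in CD8-gated cells by -0.44 (SE 0.04, adjusted p = 1.91e-08), -0.46 (SE 0.05, adjusted p = 3.32e-07) and -0.37 (SE 0.05, adjusted p = 2.37e-06). CD3D and CD3G were lower by -0.38 (SE 0.04, adjusted p = 7.27e-07) and -0.24 (SE 0.04, adjusted p = 6.81e-05). CD3E and CD247 did not pass the test, both at -0.03 (SE 0.05 and 0.05). TRBC1 and TRBC2 are near-identical copies whose 3′ reads the counting could have exchanged, so their separate values are uncertain.

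The 5 genes higher in CD8-gated cells came from several steps of the pathway. GRAP2 (GADS), which ties LCP2 to LAT, stood at 145.7, 145.8 and 154 CPM against 72.4, 93.9 and 91.8 CPM, a difference of 0.67 (SE 0.08, adjusted p = 4.53e-07). THEMIS stood at 155, 154 and 159 CPM against 87.2, 98.3 and 100.1 CPM, a difference of 0.60 (SE 0.07, adjusted p = 6.02e-07). PTPN22, which dephosphorylates LCK, differed by 0.54 (SE 0.09, adjusted p = 4.42e-05). The levels of these 3 genes did not overlap between the gates. PLCG1, the phospholipase that starts the calcium branch, and ZAP70 were higher by 0.34 (SE 0.12, adjusted p = 0.0259) and 0.22 (SE 0.07, adjusted p = 0.0191). Neither held under DESeq2, PLCG1 was at 0.30 and 0.26 without the naïve and the sham library, and ZAP70 at 0.25 and 0.18 without the sham and the SCI library, none of which passed.

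Of the other genes lower in CD8-gated cells, CSK differed by -0.50 (SE 0.05, adjusted p = 1.32e-07), MALT1 by -0.43 (SE 0.08, adjusted p = 0.000262), VAV1 by -0.38 (SE 0.09, adjusted p = 0.00136) and SKAP1, an adaptor upstream of integrin activation, by -0.29 (SE 0.05, adjusted p = 7.11e-05). PTPN6, CD5, RASGRP1, PAG1, PTPRC and BCL10 were called at -0.40, -0.36, -0.25, -0.19, -0.19 and -0.38, with levels that overlapped between the gates. The CD5 call was lost without the SCI library (-0.15) and the BCL10 call without the naïve (-0.29) or the sham library (-0.28). LCK, FYN, PRKCQ, CD2, LCP2, FYB1, CD6 and UBASH3A did not pass the test, with differences from -0.21 to 0.17.

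In FOXP3-gated cells, the gate of regulatory T cells, the set divided evenly. Against CD4-gated cells 9 of 33 genes were higher and 9 lower with edgeR's quasi-likelihood test, against 10.4% higher and 8.86% lower of 9792 genes. THEMIS stood at 26.8, 40.3 and 40.2 CPM in FOXP3-gated cells of naïve, sham and SCI blood and 87.2, 98.3 and 100.1 CPM in CD4-gated cells. FYB1 stood at 677, 727 and 769.8 CPM against 1325, 1588 and 1488 CPM. Both genes were far below the CD4 gate in every library, with differences of -1.36 (SE 0.13, adjusted p = 1.06e-10) and -0.99 (SE 0.04, adjusted p = 2.23e-19).

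VAV1, the exchange factor that links the receptor to the cytoskeleton, stood at 43.3, 44.1 and 44.1 CPM against 75.0, 66.0 and 75.3 CPM, a difference of -0.66 (SE 0.13, adjusted p = 0.000123). CD6, a scavenger-type receptor that binds ALCAM, stood at 48.5, 50.4 and 77.8 CPM against 79.1, 81.0 and 114 CPM, a difference of -0.61 (SE 0.11, adjusted p = 6.79e-05). Within each library both genes were lower in FOXP3-gated cells. UBASH3A, a suppressor of receptor signalling, was lower by -0.45 (SE 0.13, adjusted p = 0.0117), and TRAT1, PAG1, PTPN6 and LAT by -0.27 to -0.22. Calls were lost for UBASH3A without the naïve (-0.39) or sham library (-0.40), for PAG1 without naïve (-0.18), for LAT without sham (-0.13) and for PTPN6 without any of the 3 (-0.28 to -0.22).

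The genes higher in FOXP3-gated cells included all 3 constant regions. TRAC stood at 2309, 2213 and 2233 CPM against 1968, 1821 and 1717 CPM, a difference of 0.33 (SE 0.04, adjusted p = 5.96e-09), with TRBC1 at 0.44 (SE 0.04, adjusted p = 5.61e-10) and TRBC2 at 0.36 (SE 0.04, adjusted p = 2.24e-08). PTPN22 stood at 103, 99.5 and 76.5 CPM against 53.2, 59.7 and 61.6 CPM, a difference of 0.73 (SE 0.11, adjusted p = 4.22e-06). RASGRP1 stood at 426, 411 and 355 CPM against 315, 316 and 286 CPM, a difference of 0.41 (SE 0.06, adjusted p = 4.09e-07). The libraries of the 2 gates did not overlap for any of these genes. CD3D was higher by 0.29 (SE 0.04, adjusted p = 2.02e-07), CD2 by 0.28 (SE 0.06, adjusted p = 0.000155), SKAP1 by 0.22 (SE 0.05, adjusted p = 0.00282) and PTPRC by 0.10 (SE 0.03, adjusted p = 0.0359). SKAP1 was at 0.19 and not called without the sham library, and PTPRC was called under 1 of 10 alternatives, with 0.09 to 0.12 when any 1 library was left out.

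Cytotoxic-gated cells differed from CD8-gated cells at fewer of the genes, with 9 of 33 higher and 4 lower by edgeR's quasi-likelihood test, against 10.8% and 9.84% of 9386 genes. The cytotoxic gate had no CD4 or CD8 condition, so that it can hold CD4 cells and cells without a captured CD8 UMI. The part of such cells in these differences was not tested. PTPN6 stood at 304, 223 and 273 CPM against 171, 132 and 128 CPM. PTPN22 stood at 135, 189.8 and 185 CPM against 89.9, 99.1 and 85.8 CPM. Both inhibitory phosphatases were higher in every library without overlap, by 0.94 (SE 0.11, adjusted p = 6.73e-07) and 0.94 (SE 0.13, adjusted p = 7.69e-06).

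CD2, an adhesion and costimulatory receptor, stood at 792, 951 and 794 CPM in the cytotoxic gate against 582, 598 and 571 CPM, a difference of 0.57 (SE 0.08, adjusted p = 2.97e-05). CD3D, TRAC and TRBC2 were higher by 0.53 (SE 0.08, adjusted p = 2.71e-05), 0.48 (SE 0.10, adjusted p = 0.000862) and 0.36 (SE 0.09, adjusted p = 0.0052). ZAP70, CD28 and CSK were higher by 0.43, 0.46 and 0.33, with adjusted p of 0.00748, 0.0118 and 0.0196, and each of these 3 calls was lost without the SCI library (0.41, 0.33 and 0.26). The TRBC2 call was lost without the sham library (0.23). FYB1 and GRAP2 were lower, by -0.81 (SE 0.08, adjusted p = 2.25e-07) and -0.85 (SE 0.13, adjusted p = 3.37e-05). FYB1 stood at 818, 786 and 836 CPM against 1399.9, 1581 and 1419 CPM, and GRAP2 at 75.5, 79.4 and 85.4 CPM against 145.7, 145.8 and 154 CPM, so that neither overlapped. CD5, a brake on the receptor, and TRAT1 were lower by -0.53 (SE 0.17, adjusted p = 0.0265) and -0.46 (SE 0.11, adjusted p = 0.00261), the first being lost without the sham library (-0.35).

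The remaining gates were described without a test, since the genes of the NRP2 and PD-1 gates had led clusters of these cells. In the NRP2 gate TRAC stood at 923, 888 and 1039.6 CPM and CD3D at 828, 938 and 1057 CPM, the lowest gate mean for both genes. TRAT1 had its highest mean there, at 390.4, 477 and 474 CPM. In the PD-1 gate FYB1 stood at 1737, 1896 and 1944 CPM and LAT at 655, 600.4 and 624 CPM, the highest gate means of both. In CPM, cycling cells had the lowest mean for 13 of the 33 genes, among them PAG1, SKAP1 and LCK. These cells were deep, with a median of 7990, 13065 and 10934 UMIs. Per cell LCK had 3.68, 5.80 and 5.08 UMIs in them, against 2.11, 2.89 and 2.53 in all T cells. Over all gates the FOXP3 gate had the highest mean for 9 genes and the PD-1 gate for 8, and for 20 genes the library ranges of the highest and the next gate overlapped. The same counts were not taken over all genes, so that they are no result about the set.

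Levels by library were close across blood, as the plot of CPM by library shows. Each gene is given below over all T cells, in the order naïve, sham, SCI blood, cord. Differences between libraries were called past the fold where the ratio exceeded 1.2-fold (0.26 on the log2 scale) and its 95% counting interval left out no change. The interval covers counting error only, not the spread between animals.

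**Figure D2:**
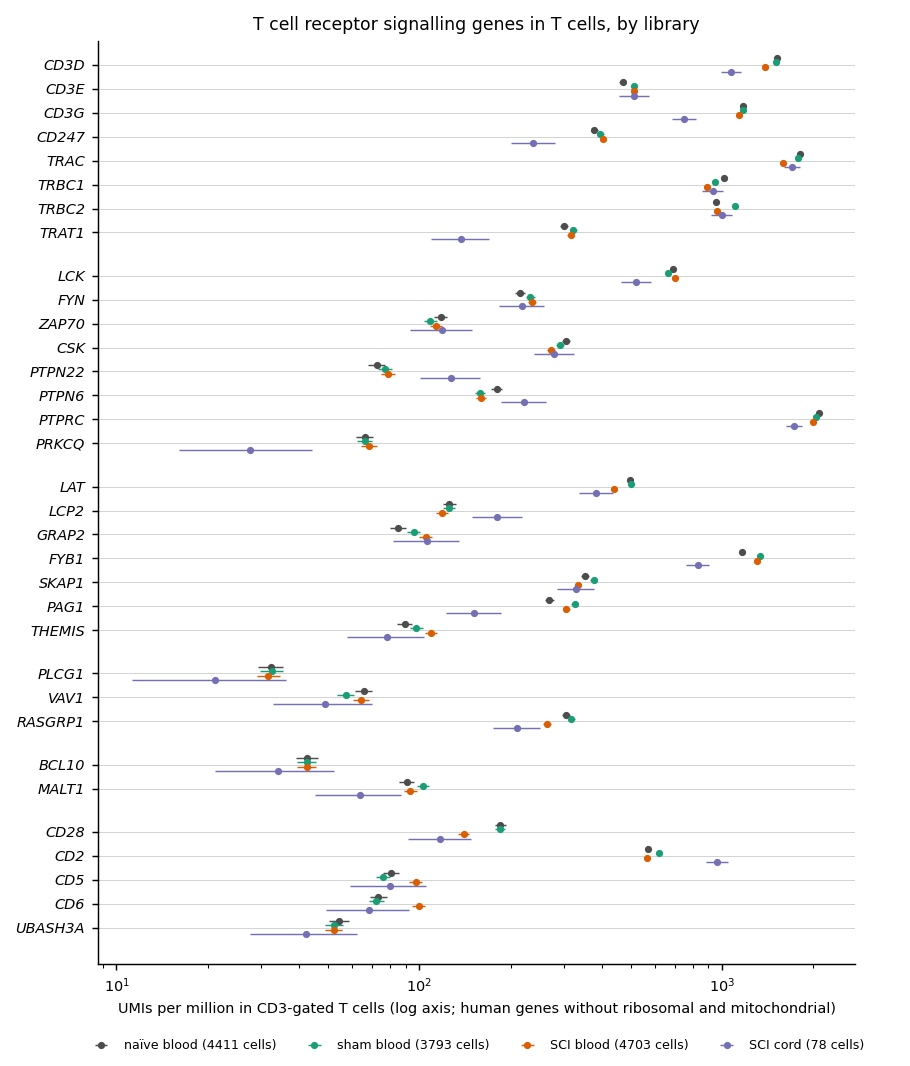
CPM (log axis) of the 33 genes in CD3-gated T cells of the 4 libraries, grouped by role from receptor chains at the top to surface receptors at the bottom, with 95% Poisson intervals. The 3 blood libraries lie close together for most genes, and the cord library (78 cells) has wide intervals and stands apart for TRAT1, PRKCQ, PAG1 and CD2.

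Among the receptor chains and the associated adaptor TRAT1, CD3D stood at 1519, 1503, 1382 and 1068 CPM, CD3E at 468, 513, 511 and 513 CPM, CD3G at 1168, 1174, 1137 and 749 CPM and CD247 at 378, 396, 404 and 238 CPM. TRAC stood at 1812, 1777, 1589.9 and 1701 CPM, TRBC1 at 1014, 945, 887 and 929.7 CPM, TRBC2 at 956, 1105, 962 and 996 CPM and TRAT1 at 301, 322, 316 and 137 CPM. None of the 8 passed the fold in any blood comparison, and the ratios ran from -0.20 for TRBC2 in SCI against sham to 0.21 for the same gene in sham against naïve.

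Among kinases and phosphatases, LCK stood at 688, 662, 699 and 519 CPM, FYN at 215, 233, 235 and 218 CPM, ZAP70 at 118, 109, 113 and 119 CPM and CSK at 304, 292, 272 and 278 CPM. PTPN22 stood at 72.2, 76.9, 78.9 and 127 CPM, PTPN6 at 179.9, 159, 160.1 and 221 CPM, PTPRC at 2091, 2045, 1992 and 1726 CPM and PRKCQ at 65.9, 66.0, 68.2 and 27.7 CPM. None of the 8 passed the fold between blood libraries, with ratios of -0.18 to 0.13.

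Among adaptors, LAT stood at 496, 499.6, 440.1 and 384 CPM, LCP2 at 126, 125, 119 and 181 CPM, FYB1 at 1159, 1336, 1299.6 and 832 CPM and SKAP1 at 352, 377, 334 and 329 CPM. GRAP2 stood at 85.1, 96.0, 105 and 106 CPM, THEMIS at 89.3, 97.8, 109 and 78.1 CPM and PAG1, a membrane adaptor that recruits CSK, at 268, 325, 306 and 151 CPM. Among enzymes, PLCG1 stood at 32.3, 32.6, 31.8 and 21.2 CPM, VAV1 at 65.6, 57.1, 64.3 and 48.8 CPM and RASGRP1 at 305, 317, 264 and 210.0 CPM. In the NF-kB branch, BCL10 stood at 42.5, 42.4, 42.4 and 34.2 CPM and MALT1 at 90.9, 103, 93.4 and 63.5 CPM.

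Among surface receptors, CD28 stood at 185, 185, 139.9 and 117 CPM, CD2 at 571, 616, 566 and 961 CPM, CD5 at 80.6, 75.8, 97.1 and 79.8 CPM and CD6 at 73.2, 72.0, 99.4 and 68.4 CPM. The inhibitor UBASH3A stood at 54.3, 52.3, 52.1 and 42.3 CPM. In blood the SCI library was thus the low one for CD28 and the high one for CD5 and CD6, with naïve and sham side by side.

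Sham and naïve blood differed past the fold at PAG1 alone. PAG1 was higher in sham by 0.28 (95% interval 0.22 to 0.34), which put 1 of 33 genes higher and 0 lower, against 4.88% higher and 6.29% lower of 10559 genes, or 2.37% and 2.64% of the 2990 genes with counts in the members' range (their 10th to 90th percentile). With immunoglobulin transcripts left out of the total, or without cells that held markers of other lineages, the PAG1 ratio was 0.26 and 0.25 and did not pass. The other 32 genes ran from -0.20 to 0.21, and the median of the set was 0.01, against -0.00 for all genes.

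Against naïve blood, T cells of SCI blood had more CD6, GRAP2, THEMIS and CD5 and less CD28. CD6 was higher by 0.44 (0.33 to 0.56), GRAP2 by 0.30 (0.19 to 0.41), THEMIS by 0.29 (0.18 to 0.39) and CD5 by 0.27 (0.16 to 0.38), while CD28 was lower by -0.40 (-0.49 to -0.32). These were 4 higher and 1 lower of 33, against 9.51% and 10.7% of 10612 genes, or 7.48% and 7.34% of the 2846 genes in the counts range of the members, with a median of -0.01. With immunoglobulin transcripts left out of the total CD5 was at 0.25 and did not pass. Monocyte markers were lower in SCI than in naïve or sham T cells, and without cells that held any other lineage's markers CD6 was at 0.41, CD5 at 0.27 and CD28 at -0.42 against naïve, while GRAP2 (0.22) and THEMIS (0.19) did not pass. With ribosomal and mitochondrial genes in the total, whose share of UMIs was 30.5% in SCI T cells and 25.5% in naïve ones, 1 gene was higher and 6 lower. The share of all genes past the fold was not taken with that total.

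Against sham blood, SCI T cells again had more CD6 and CD5, by 0.46 (0.36 to 0.57) and 0.36 (0.25 to 0.47), and less CD28, by -0.40 (-0.48 to -0.32). RASGRP1 was lower by -0.27 (-0.32 to -0.21). These were 2 higher and 2 lower of 33, against 8.73% and 8.44% of 10748 genes, or 5.07% and 5.84% of the 2980 in the members' counts range, with a median of -0.04. With ribosomal and mitochondrial genes in the total 2 were higher and 5 lower, and the share of all genes was not taken with that total. Without cells that held other lineages' markers CD6 was at 0.43, CD5 at 0.41 and CD28 at -0.37. Both comparisons share the SCI library. In sham against naïve blood CD6 was at -0.02 (-0.15 to 0.10), CD5 at -0.09 (-0.21 to 0.03) and CD28 at -0.00 (-0.08 to 0.07).

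**Figure D3:**
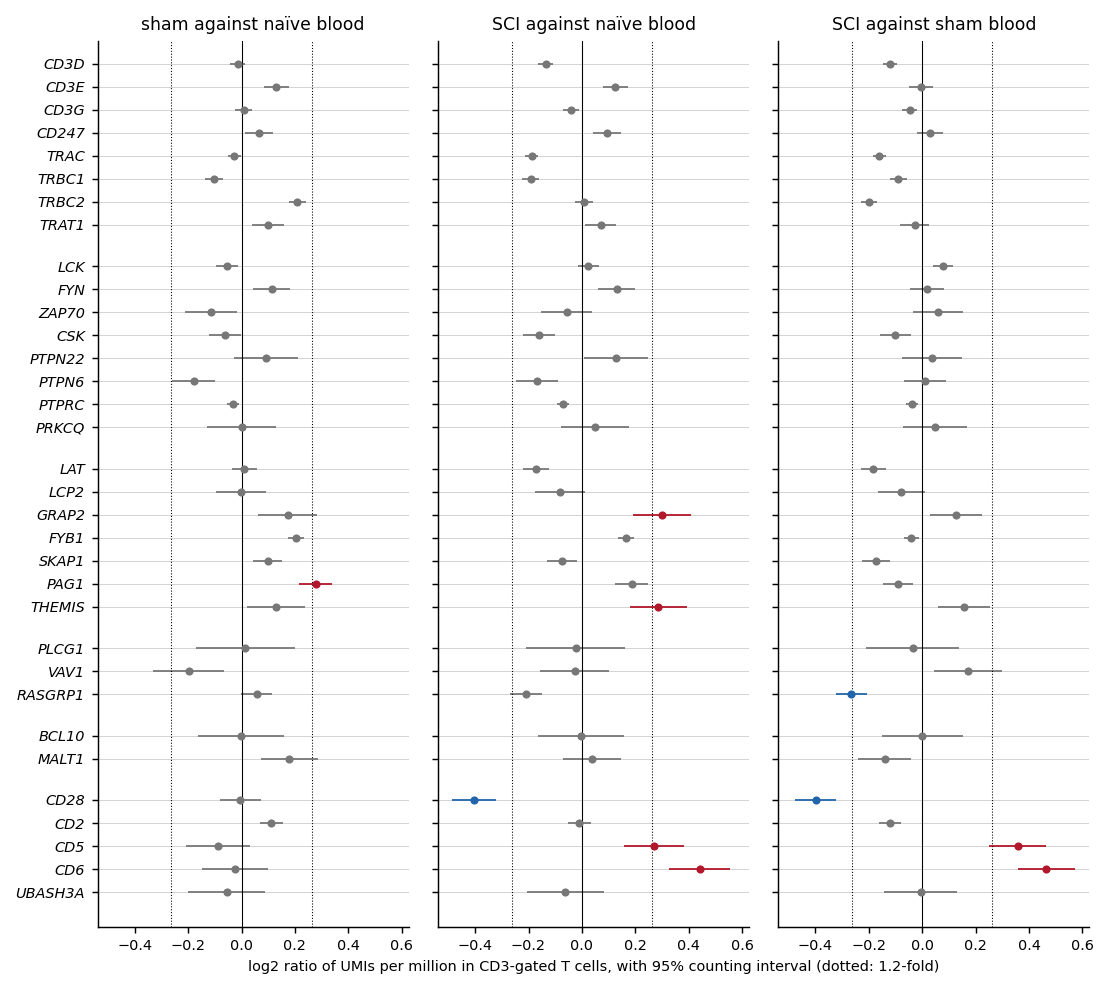
Log2 ratio of CPM in CD3-gated T cells for the 33 genes (rows, by role) in 3 comparisons of blood libraries, with 95% counting intervals. Red and blue points passed 1.2-fold (dotted lines) with the interval off no change: PAG1 in sham against naïve, CD28 (lower) with CD5 and CD6 (higher) in both SCI comparisons, GRAP2 and THEMIS (higher) in SCI against naïve, and RASGRP1 (lower) in SCI against sham.

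The CD8 gate held 17.0%, 19.4% and 29.6% of naïve, sham and SCI T cells, and CD28 was lower in that gate, so ratios were also taken with each gate given equal weight. CD28 was then at -0.42 (-0.58 to -0.26) against naïve and -0.28 (-0.41 to -0.15) against sham blood. CD6 was at 0.47 (0.22 to 0.71) and 0.53 (0.34 to 0.72), and CD5 at 0.37 (0.15 to 0.59) and 0.48 (0.29 to 0.66). GRAP2 and THEMIS fell to 0.06 and 0.11 against naïve, and RASGRP1 was at -0.15 against sham, so that these 3 did not pass.

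Within single gates CD28 passed the fold below naïve in SCI blood in CD8-gated cells and in several others. Against sham it passed in CD8-gated cells alone. In CD8-gated cells CD28 rested on 246 naïve, 320 sham and 272 SCI UMIs, and the ratio was -0.91 (-1.17 to -0.66) against naïve and -0.84 (-1.08 to -0.61) against sham. In CD4-gated cells CD28 stood at 212, 215 and 188 CPM, with ratios of -0.18 (-0.34 to -0.01) and -0.19 (-0.34 to -0.05) that did not pass the fold. In cytotoxic-gated cells CD28 stood at 158, 137 and 99.8 CPM, with ratios of -0.66 (-1.08 to -0.24) against naïve and -0.46 (-0.93 to 0.03) against sham. The ratio against naïve was -0.31 (-0.61 to -0.01) in FOXP3-gated cells, -0.28 (-0.42 to -0.15) in cells with no call and 0.10 (-0.13 to 0.34) in cycling cells. In these gates, in the same order, CD28 stood at 231, 192 and 175 CPM in sham and 200, 161 and 164 CPM in SCI blood. None of these differences from sham passed the fold. Whether the CD28 ratio differed between gates was not tested.

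CD6 was higher in several gates of SCI blood. In CD4-gated cells it stood at 79.1, 81.0 and 114 CPM in naïve, sham and SCI blood, with ratios of 0.52 (0.28 to 0.77) and 0.49 (0.28 to 0.70) against naïve and sham. In FOXP3-gated cells the ratios were 0.68 (0.11 to 1.26) and 0.63 (0.12 to 1.13), and in cycling cells 0.87 (0.51 to 1.25) and 0.67 (0.35 to 0.99). In CD8-gated cells CD6 stood at 85.9, 77.4 and 93.7 CPM, past the fold against sham but not against naïve. CD5 in CD4-gated cells stood at 90.5, 82.0 and 122 CPM, with ratios of 0.43 (0.20 to 0.66) and 0.57 (0.36 to 0.78). In CD8-gated cells CD5 was level, at 86.4, 79.9 and 82.7 CPM.

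PAG1 was higher in sham than naïve blood in most gates, by 0.30 (0.17 to 0.42) in CD4-gated cells, 0.46 (0.23 to 0.70) in FOXP3-gated cells, 0.31 (0.16 to 0.47) in CD8-gated cells and 0.58 (0.22 to 0.95) in cytotoxic-gated cells. GRAP2 was higher in SCI than naïve blood by 0.34 (0.08 to 0.60) in CD4-gated cells, and THEMIS by 0.38 (0.01 to 0.75) in cycling cells. In CD8-gated cells neither passed the fold, with GRAP2 at 145.7 and 154.3 CPM and THEMIS at 154.6 and 159.3 CPM in naïve and SCI blood. Their ratios in the remaining gates are not listed. TRBC1 also varied from gate to gate. In cytotoxic-gated cells it stood at 932, 470 and 1011 CPM in naïve, sham and SCI blood, while TRBC2 stood at 1041, 1436 and 949 CPM. The sham library was thus low for one constant region and high for the other in this gate of 112 cells.

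**Figure D4:**
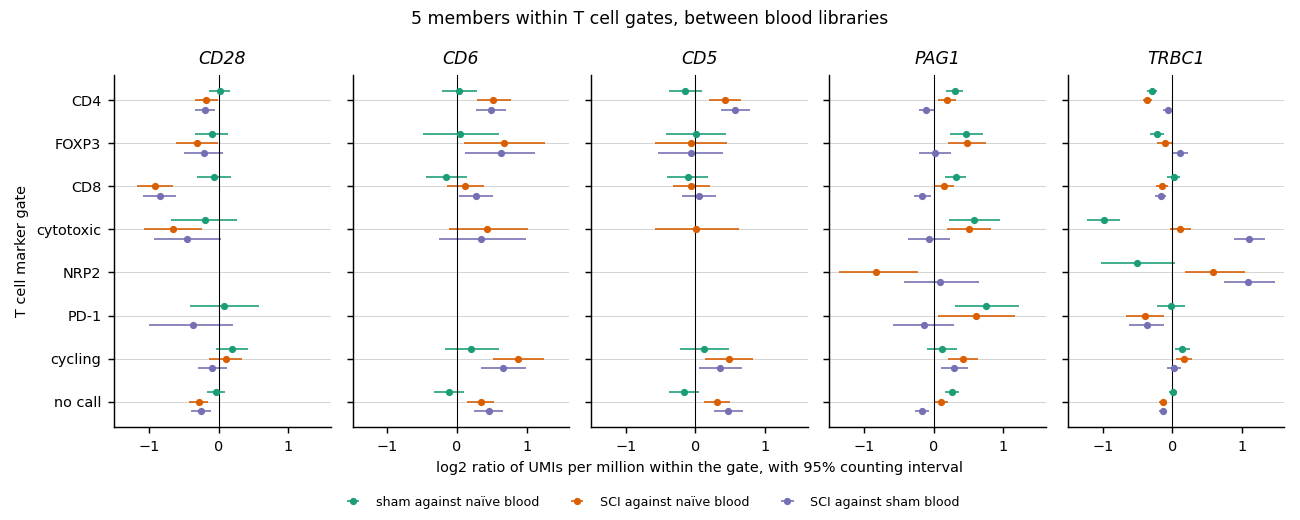
Log2 ratio of CPM, with 95% counting interval, for CD28, CD6, CD5, PAG1 and TRBC1 within each T cell gate (rows) in 3 comparisons of blood libraries. These 5 genes were chosen after the values had been seen, and gates with under 100 UMIs over both libraries are left blank. CD28 lies furthest below 0 in the CD8 gate of SCI blood and CD6 above 0 in the CD4, FOXP3 and cycling gates.

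T cells of the SCI cord held less of several proximal signalling transcripts than those of SCI blood, and more of CD2, PTPN22, LCP2 and PTPN6. CD2 stood at 961 against 566 CPM, a ratio of 0.76 (0.64 to 0.88). PTPN22 was higher by 0.70 (0.34 to 1.02), LCP2 by 0.61 (0.32 to 0.88) and PTPN6 by 0.47 (0.21 to 0.72). Lower were PRKCQ by -1.26 (-2.09 to -0.62, 17 UMIs in cord), TRAT1 by -1.20 (-1.54 to -0.90), PAG1 by -1.01 (-1.32 to -0.72), CD247 by -0.76 (-1.01 to -0.53) and FYB1 by -0.64 (-0.77 to -0.52).

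CD3G, MALT1, CD6, THEMIS, LCK, CD3D and RASGRP1 were lower as well, by -0.60, -0.54, -0.52, -0.47, -0.43, -0.37 and -0.32. In all 4 genes were higher and 12 lower, against 12.3% and 10.5% of 9678 genes, with a median of -0.27 against 0.01. CD3D and CD3G, among the 12, also made the T cell gate, so that their levels here were partly set by the selection. Among the genes in the members' counts range 12.7% were higher and 21.8% lower, with a median of -0.08. The other 17 genes ran from -0.53 to 0.10, and at 78 cells a change in scarce genes such as BCL10 (21 UMIs, -1.01 to 0.31) was not detectable.

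Markers of other lineages moved with these differences. In cord T cells basophil or mast markers stood at 936 against 36.0 CPM in SCI blood and natural killer markers at 747 against 137 CPM, with EPX, ELANE and MPO among the granulocyte genes and NCAM1 and KLRF1 among the natural killer genes at 0. Of the 78 cells, 53 had no UMI of any other lineage's markers. In these CD2 was at 0.81 (0.64 to 0.97), PTPN22 at 0.79 (0.30 to 1.22) and LCP2 at 0.72 (0.31 to 1.07), and TRAT1, PAG1, PRKCQ and FYB1 stayed below blood at -1.16 (-1.62 to -0.75), -1.03 (-1.49 to -0.64), -0.91 (-1.98 to -0.13) and -0.57 (-0.75 to -0.40).

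In the same 53 cells CD3D and LCK were at -0.09 and -0.06, CD3G at -0.17 and PTPN6 at 0.33, none past the fold, and the median of the set was -0.06. TRBC2, TRAC and CD3E passed in the other direction, at 0.63 (0.49 to 0.76), 0.45 (0.34 to 0.56) and 0.42 (0.21 to 0.61). With mean CPM per cell, which weights each cell equally, 7 genes were higher and 6 lower, and the share of all genes was not taken. CD2 and PTPN22 passed under all 16 alternatives, while the count of lower genes depended on which cells were kept. Among all 78 cord cells, PTPN22 stood at 233 CPM in the FOXP3 gate, against 76.5 CPM in SCI blood. It stood at 260 against 185 CPM in cytotoxic-gated, 53.8 against 61.6 CPM in CD4-gated and 28.6 against 85.8 CPM in CD8-gated cells. The CD4 and CD8 values rested on 6 and 2 cord UMIs. The FOXP3 and cytotoxic gates held 17.9% and 15.4% of cord T cells against 4.68% and 6.08% in SCI blood. Their part in the PTPN22 ratio was not tested.

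**Figure D5:**
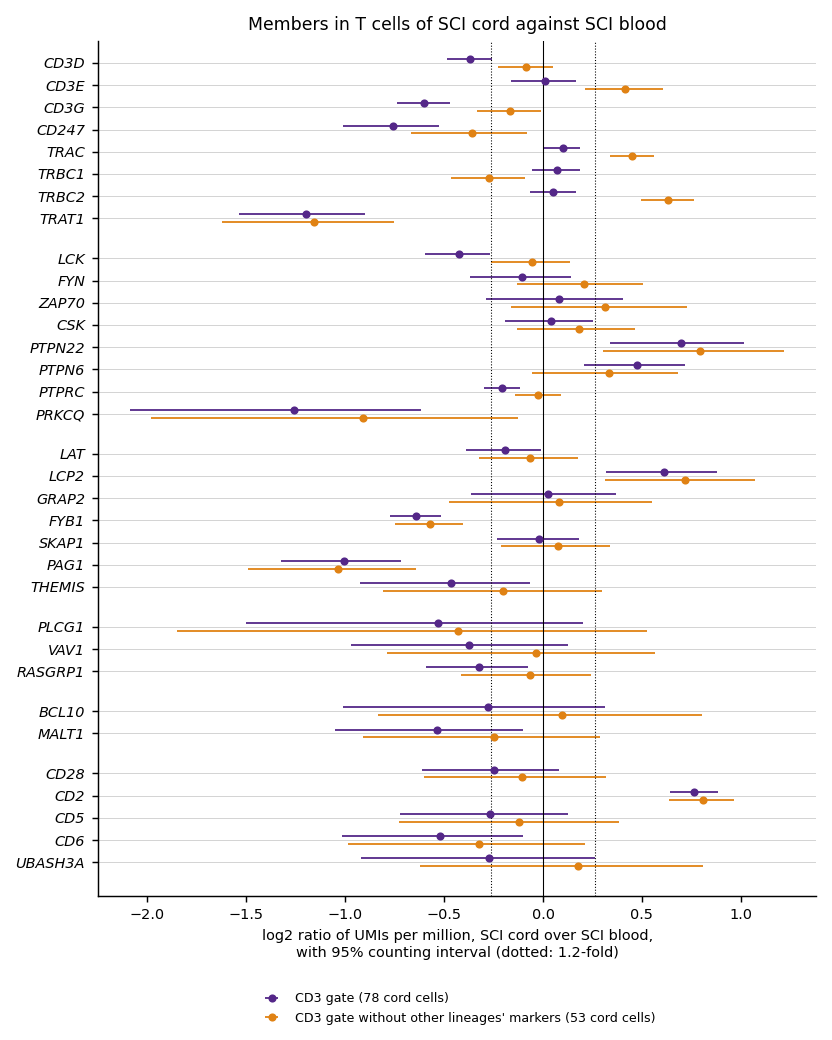
Log2 ratio of CPM in T cells of SCI cord over SCI blood for the 33 genes (rows, by role), with 95% counting intervals, for all 78 CD3-gated cord cells and for the 53 without a UMI of other lineages' markers. CD2, PTPN22 and LCP2 lie above 0 and TRAT1, PAG1, PRKCQ and FYB1 below 0 in both sets, whereas CD3D, CD3G and LCK move toward 0 in the smaller set.

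Cord tissue was digested with papain and enriched on magnetic beads before sorting, and blood was not, so that tissue and preparation cannot be told apart. Dissociation response genes moved with the cord library, with 10 of 16 higher and 1 lower, against 12.3% and 10.5% of all genes. FOS stood at 1081 against 117 CPM (3.21) and DUSP1 at 448 against 84.2 CPM (2.41), while HSPA8 was lower by -0.51. The part of the dissociation genes in the member differences was not tested.

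Of 60 other genes of the pathway, 59 were tested, and the counts past the fold in blood were near or below the shares among all genes given above. In sham against naïve blood 0 were higher and 3 lower: SLA, an adaptor that lowers receptor levels, at -0.48, SH2D1A at -0.33 and HRAS at -0.28. In SCI against naïve blood 3 were higher and 3 lower, led by TXK, a Tec-family kinase, at 98.8 against 48.7 CPM (1.02, 0.89 to 1.15), with RHOH at 0.34 and MAP2K1 at 0.32, and with SLA at -0.68, DOK2 at -0.38 and DOK1 at -0.27.

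In SCI against sham blood 6 of the 59 were higher and 4 lower, near the 8.73% and 8.44% of all genes, with TXK at 0.86, PPP3CA at 0.33, MAP2K1 at 0.32, MAPK3 at -0.34, CALM3 at -0.31 and PPP3CB at -0.29. In cord against SCI blood 7 were higher and 8 lower, against 12.3% and 10.5% of all genes, with SOS2 at 1.19, PPP3CB at 0.54, NCK1 at 0.38, TXK at -0.90 and NFATC3 at -0.57. The medians of these 59 genes ran from -0.03 to 0.01 over the 4 comparisons, and those of all genes from -0.00 to 0.01.

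Genes that receptor engagement induces moved in both directions in blood. In SCI against naïve blood 7 of 16 were higher and 5 lower, against 9.51% and 10.7% of all genes: FOS was at 117 against 36.7 CPM (1.67), with FOSB at 1.09 and JUN at 1.01, while TNFRSF9 (4-1BB) was at -1.82, IRF4 at -1.76 and TNFRSF18 (GITR) at -1.12. In SCI against sham blood 4 of 17 were higher and 6 lower, against 8.73% and 8.44%, with FOS at 0.85, FOSB at 0.50, MYC at 0.35, TNFRSF9 at -1.27, IL2RA at -1.15 and TNFRSF18 at -1.11. The FOXP3 gate held 4.68% of SCI T cells against 7.84% in naïve and 10.9% in sham blood, and its part in these ratios was not tested.

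In sham against naïve blood 7 of 16 induced genes were higher and 3 lower, against 4.88% and 6.29%, with FOS at 0.83, JUN at 0.76, FOSB at 0.59, IRF4 at -0.97, TNFRSF9 at -0.54 and DUSP2 at -0.47. In cord against SCI blood 14 of 15 were higher and 1 lower, against 12.3% and 10.5% of all genes. The highest were NR4A2, an early gene of receptor signalling, at 163 against 3.64 CPM (5.48, 5.01 to 5.96), CD69 at 602 against 61.8 CPM (3.29) and FOS at 3.21, while MYC was lower by -1.45. FOS, FOSB, JUN, JUNB, EGR1 and NFKBIA stand in both the induced and the dissociation list. The medians of the induced genes were 0.20, -0.02, -0.02 and 1.81 for sham against naïve, the pair of SCI comparisons and cord, and those of the dissociation genes 0.29, 0.27, 0.12 and 1.22. Of 16 dissociation genes tested, 9 were higher in sham than naïve blood and 2 lower (IER3 at -0.39 and ZFP36 at -0.28), against 4.88% and 6.29% of all genes. Between SCI and naïve blood 8 were higher and 0 lower, against 9.51% and 10.7%. Between SCI and sham blood 4 were higher, among them IER3 at 0.64, and 1 lower (HSPA1A at -0.37), against 8.73% and 8.44%.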

How the data were processed

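Sorted human CD45+ cells were sequenced by droplet-based 3′ scRNAseq in 4 libraries of pooled animals. The authors aligned reads with Cell Ranger to hg38 and mm10 combined (tool and builds per the submitters' processing notes) and deposited raw UMI counts per gene and barcode, not normalised. Reads of near-identical genes such as TRBC1 and TRBC2 may have been exchanged or dropped in that counting.

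From the counts, barcodes with over 50% human UMIs were kept, less those beyond 3 MADs (low UMIs or genes, high mitochondrial or ribosomal share) and Scrublet-marked doublets (0.8% per 1000 barcodes) with over 3000 genes. Human UMIs per library after this were 1430777 in cord and 27762374 to 31110171 in blood. Gates were exclusive, in the order cycling (at least 2 UMIs), FOXP3, cytotoxic (2), NRP2 (2), CD8, PD-1 (2) and CD4. The CD8 gate needed a UMI of CD8A or CD8B and none of CD4, and the FOXP3, PD-1 and CD4 gates allowed no UMI of CD8A or CD8B. The cycling, cytotoxic and NRP2 gates had no CD4 or CD8 condition. Counts were summed per library and gate and scaled to CPM without ribosomal and mitochondrial genes. Ratios between libraries used 0.5 added counts, only genes whose counts in the 2 libraries summed to 100 or more, and 95% conditional binomial intervals; levels carry Poisson and shares exact binomial intervals, all for counting error only. Gates were compared with edgeR 4.0.16 (R 4.3.3): TMM, filterByExpr, quasi-likelihood F-test with library as a block and Benjamini-Hochberg adjustment over all genes tested, threshold 0.05; SEs were taken from the F statistic. DESeq2 1.42.0, other scalings, filters and gates were alternatives. Other steps ran in Python 3.11.15 with scanpy 1.11.5, matplotlib 3.10.9, pandas 2.3.3, scipy 1.17.1 and numpy 2.4.6, and both calculations were tested on simulated data.

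Genes were named as follows: all 33 members with values in every library, and of each further list the 3 highest and 3 lowest ratios past the fold, of which 1 gene is not reported here. Members, lists, gates and tests were chosen with earlier results of these data known. Marker levels per library were also computed for B cells (107 to 132 CPM summed in gated T cells, MS4A1 at 0 by the gate), plasma cells (125 to 7582 CPM, highest in naïve blood), erythroid cells (at most 1.63 CPM) and platelets (0).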

Additional observations from a re-analysis of the deposited data

Results flagged for a closer look

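A ratio between 2 libraries was past the fold in one direction in one T cell gate and in the opposite direction in another gate for 8 patterns, in 6 of the 33 genes. The differences between gates were not tested, many gates were looked at, and several held few cells. Such patterns were not counted over all genes, so that these counts are no result about the set. PRKCQ in sham against naïve blood was at -0.53 in cycling cells and 0.48 in FOXP3-gated cells. TRBC1 in SCI against naïve blood was at -0.39 in the PD-1 gate and 0.59 in the NRP2 gate, and in SCI against sham blood at -0.36 in the PD-1 gate and 1.10 in the cytotoxic gate. PAG1 in SCI against naïve blood was at -0.82 in the NRP2 gate and 0.61 in the PD-1 gate. TRBC2 in SCI against sham blood was at -0.60 in the cytotoxic gate and 0.41 in the PD-1 gate.

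In SCI cord against SCI blood CD3E was at -0.72 in cells with no call (15 cord cells) and 0.44 in CD4-gated cells (18 cord cells), and TRAC was at -0.68 and 0.46 in the same gates. TRBC1 was at -1.57 in cytotoxic-gated and 0.70 in CD8-gated cord cells (12 and 11 cells).

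Mouse barcodes, which no comparison used, held UMIs of mouse Cd3d, although the host strain lacks functional lymphocytes. There were 423 UMIs in sham blood, in 305 of 1955 mouse barcodes (15.6%), and 145 UMIs in SCI blood, in 118 of 1214 (9.72%), against 7 UMIs in 5 of 1396 (0.358%) in naïve blood and 0 in 92 in cord. Mouse Cd3g had 1, 4, 3 and 0 UMIs in naïve, sham and SCI blood and cord, the receptor constant regions had 5 UMIs in 2 sham barcodes and none elsewhere, and Cd3e had 0 in all 4 libraries.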

How the results depend on the processing

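Of the 28, 23, 18 and 13 genes called in T against B, CD8 against CD4, FOXP3 against CD4 and cytotoxic against CD8 cells, 27, 14, 8 and 5 kept their call under every alternative, and over all of these alternatives 770 of 868 values kept their call, 98 lost it and 0 turned direction. Called counts were 28 to 28, 20 to 23, 14 to 16 and 10 to 13 without 1 library each. DESeq2 called 15, 11 and 7 in the last 3 comparisons, thinned cells 11 in FOXP3 and 7 in cytotoxic cells, and 10 were called in FOXP3 cells without library as a block. No paired analysis was possible because each condition had 1 library, so that the library block served the gate comparisons alone. Of the 1, 5, 4 and 16 genes past the fold in sham against naïve, SCI against naïve, SCI against sham and cord against SCI blood, 0, 1 (CD6), 1 (CD28) and 2 (CD2 and PTPN22) stayed past it under every alternative. As UMIs per cell, which follow depth (median of all genes 0.50, 0.23, -0.26 and 1.13), the counts were 33, 14, 21 and 29. In all human cells, chosen as an alternative after seeing the data like the library totals, they were 25, 20, 3 and 31, where the share of T cells also enters. For sham against naïve the count was 0 with per-cell means, without immunoglobulin genes, at 2 CD3 UMIs, without other lineages' markers and with equal gate weights, 2 in thinned cells and 3 with a TRAC and TRBC gate. For SCI against naïve it was 2 at 2 CD3 UMIs and 3 without other lineages' markers or with equal gate weights, for SCI against sham 7 with ribosomal and mitochondrial genes in the total, and for cord 9 in thinned cells. The share of all genes called or past the fold was not taken under these alternatives, so that their counts are no result about the set. Ratios of cord against SCI blood turned positive as UMIs per cell for CD3D (0.75), CD3G (0.52), CD247 (0.36), LCK (0.69), RASGRP1 (0.80), FYB1 (0.48), PAG1 (0.12), THEMIS (0.65), MALT1 (0.58) and CD6 (0.60), and in thinned cells for MALT1 (0.077) and CD6 (0.058). Causes were not tested. The 78 cord cells set the limit of every cord value.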
